A study of Mus musculus with 26 samples.

Results

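Cultured mouse pre-B cells that received the chemokine CXCL12 together with ERK inhibitor II, a small-molecule inhibitor of the ERK kinases, were compared with pre-B cells that received CXCL12 alone. The comparison held 4 of the 26 samples of the series, chosen by their labels: 2 RNA-seq libraries with the inhibitor and 2 without it. Both groups were labelled as without interleukin 7 (IL-7, a cytokine that progenitors of B cells need to grow) and with CXCL12, and neither carried the CXCR4-/- label. The labels gave no strain, age, sex, inhibitor dose or time, and RNA came from flow-sorted B cells. The CXCL12 replicate 2 column was named for small pre-B cells and its title for pre-B cells. For reference, 3 further groups of 2 pre-B cell libraries each are used: with IL-7, without IL-7, and with IL-7 plus CXCL12. Single values from CXCR4-/- small pre-B cells without IL-7 and with CXCL12, and from sorted wild-type small pre-B cells, are given where they help to place a marker. The CXCL12 libraries differed from each other by little more than sampling noise, with 8.66% of genes at an unadjusted chi-square p under 0.05, against 29.4% for the inhibitor pair. Summing such close pairs to 1 library each left 6430 direct calls, 35 set-adjusted and 926 within the set in the comparisons defined below. Nothing in the labels tied the 2 replicates of a group to different mice or dishes. The p-values therefore reflect only how far libraries of the same group lay apart, which may be technical. That spread was estimated over all 9 groups of the fit and not from the compared pairs alone. Some pairs outside the comparison lay far apart. The same share of genes was 80.7% for CXCR4-/- small pre-B cells without IL-7 and 54.3% for sorted CXCR4-/- cells. Totals were 43297149 and 17257914 counts in the CXCL12 libraries and 46044096 and 49939490 in the inhibitor libraries.

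CXCL12 binds CXCR4, a receptor that couples to inhibitory G proteins. Downstream of such receptors, Ras activates the kinases RAF and MEK, and MEK activates the ERK kinases. ERK phosphorylates partners of the transcription factor SRF, which binds CArG boxes near immediate early genes such as Fos and Egr1, and it induces its own antagonists, the dual-specificity phosphatases and the Sprouty proteins. At the pre-B stage, IL-7 acting through STAT5 sustains division. Signals of the pre-B cell receptor accompany exit from the cycle and rearrangement of the immunoglobulin light chain genes, for which IRF4 and the RAG recombinase are needed.

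The compared libraries belonged to separate sets. Xist, expressed from the inactive X chromosome, stood at 0.798 and 1.54 CPM, the read count scaled by library size, in the CXCL12 libraries and at 1438 and 1454 CPM in the inhibitor libraries, and Y-linked Ddx3y at 146 and 148 against 7.74 and 6.83 CPM. Gapdh, a glycolytic gene with many near-identical copies, stood at 1.2 and 1.05 CPM with CXCL12 and at 1399 and 1556 CPM with the inhibitor. The IL-7 plus CXCL12 libraries shared the inhibitor libraries' side of all 3 genes, with 1251 and 1520, 7 and 7.02, and 1730 and 1519 CPM. Genes with near-identical copies took 4.12% and 4.16% of counts with CXCL12 and 13.3% and 13.4% with the inhibitor. Of 345 such genes tested, 233 were higher and 33 lower with the inhibitor, with a median log2 difference of 1.33. Against IL-7 plus CXCL12 their median was -0.18. They are left out of the rankings of genes below, while counts over gene lists keep them unless stated otherwise. Scaling the libraries without them moves the median log2 difference of all genes from -0.02 to 0.10.

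Markers of other cell types moved with the sets as well. The 15 stromal markers summed to 4537 and 4427 CPM with CXCL12 and to 137 and 148 CPM with the inhibitor. With IL-7 plus CXCL12 they summed to 78.8 and 77.6 CPM, and without IL-7 to 1852 and 1814 CPM. The 20 myeloid markers summed to 971 and 971 CPM with CXCL12 and to 3905 and 3988 CPM with the inhibitor. In sorted wild-type small pre-B cells they summed to 5934 and 5907 CPM, above every culture shown. The 12 markers of B-lineage identity summed to 9561 and 9405 CPM and to 6690 and 6655 CPM, and none of them was at 0 in these libraries. In bulk RNA, fewer cells of a type and less RNA per cell cannot be told apart.

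**Figure D1:**
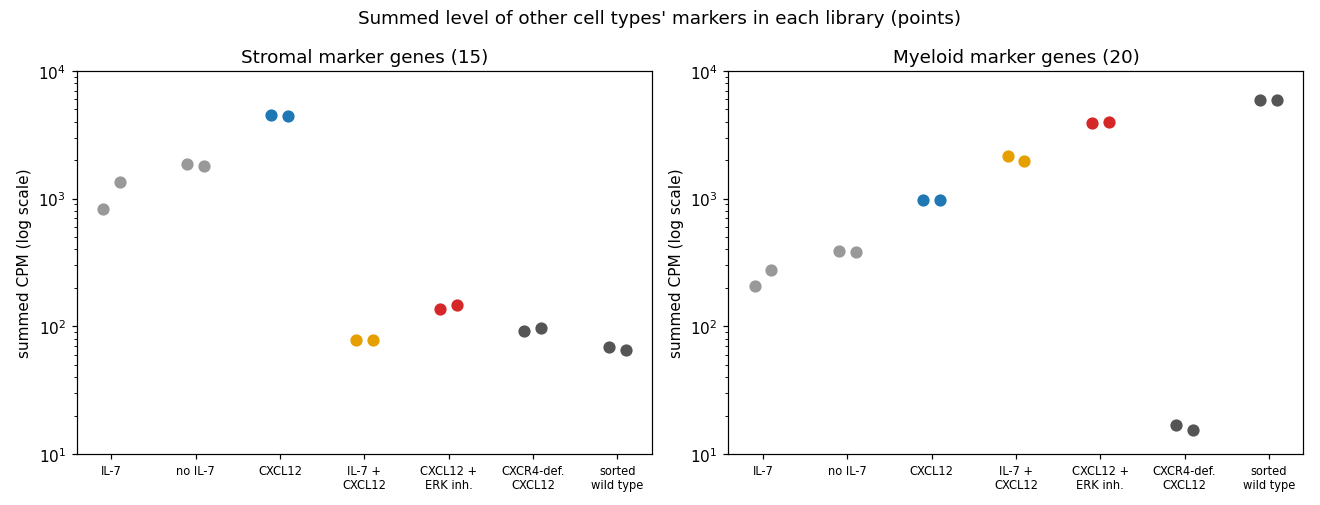
Summed CPM of stromal and myeloid marker genes on a log axis, with 1 point per library. The CXCL12 libraries hold the highest stromal sums, 4537 and 4427 CPM, and the inhibitor libraries the highest myeloid sums among the cultures, 3905 and 3988 CPM.

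Every gene was therefore tested in 3 comparisons, all from edgeR's quasi-likelihood test on 14862 genes with Benjamini-Hochberg adjusted p. For some named genes only CPM, or only some of the 3 differences, are printed. The direct comparison sets the inhibitor libraries against the CXCL12 libraries, and in it the inhibitor and the library set cannot be told apart. The set-adjusted comparison takes the difference between the inhibitor and IL-7 plus CXCL12 libraries and subtracts the difference between the cultures without and with IL-7. It holds the set constant, does not use the CXCL12 libraries, and assumes that withdrawing IL-7 does the same with and without CXCL12. The within-set comparison is the difference between the inhibitor and the IL-7 plus CXCL12 libraries alone, so that medium and inhibitor both change. The 3 share the inhibitor libraries. In the direct comparison 3994 genes were higher with the inhibitor (26.9%) and 4466 lower (30%) at an adjusted p under 0.05, and scaling without the genes with near-identical copies turned this to 4555 higher and 3735 lower. In the set-adjusted comparison 153 were higher (1.03%) and 84 lower (0.565%). Of these 237, 196 (82.7%) were called in the same direction in the direct comparison, which is 2.32% of its 8460 calls. In the within-set comparison 966 were higher (6.5%) and 674 lower (4.54%). The set-adjusted count depends on the spread assumed. When the 5 CXCR4-sufficient culture groups were fitted alone, the median standard error (SE) of a set-adjusted difference was 0.10 instead of 0.30 on the log2 scale, and 1355 genes were higher (9.32%) and 1454 lower (10%). This narrower fit is given below as the cultures-only fit, and for lists it is for the set-adjusted difference unless stated otherwise. For the within-set difference it called 2687 genes higher and 4121 lower of 14533, so within-set counts depend on the spread assumed as well. Of the 43 named genes called set-adjusted, 20 kept the call with each of the 8 libraries of that comparison left out. With close pairs of libraries summed, 12 kept it, which were Aldoc, Dtx1, Egfl6, Itgax, Mgll, Mmp13, Mpzl2, Polm, Spns3, Srpk3, Tmem108 and Trib2, and the other 31 lost it.

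Immediate early genes, which ERK switches on without new protein synthesis, were lower with the inhibitor in the direct comparison. Of 24 tested, 18 fell and 0 rose, with a median log2 difference of -1.36 against -0.02 for all genes. In the set-adjusted comparison 0 passed in either direction, with a median of -0.08, and in the within-set comparison 2 rose and 0 fell. The cultures-only fit called 4 higher and 5 lower set-adjusted, and 8 higher and 4 lower within the set.

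Egr1, a zinc finger factor and a standard readout of ERK activity, stood at 88.1 and 86.5 CPM with CXCL12 and at 7.05 and 7.65 CPM with the inhibitor, and the groups did not overlap. The direct log2 difference was -3.57 (SE 0.49, adjusted p = 5.32e-05). With IL-7 plus CXCL12 Egr1 stood at 8.05 and 7.57 CPM, overlapping the inhibitor libraries. Its set-adjusted difference was -0.82 (SE 0.63, adjusted p = 0.905, and 0.0371 in the cultures-only fit).

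Egr3, a relative of Egr1, was at 17.1 and 16.9 CPM with CXCL12, at 1.16 and 1.08 CPM with the inhibitor and at 1.49 and 1.81 CPM with IL-7 plus CXCL12. The inhibitor libraries were the lowest of all 5 culture groups. Its direct difference was -3.92 (SE 0.33, adjusted p = 9.56e-07) and its set-adjusted difference -1.37 (SE 0.44, adjusted p = 0.207, and 0.00261 in the cultures-only fit).

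Fos, a subunit of the AP-1 factor, was at 79.9 and 75.6 CPM with CXCL12 and at 6.42 and 6.67 CPM with the inhibitor. The IL-7 plus CXCL12 libraries were lower still, at 4.2 and 4.47 CPM. Fosb, another subunit of AP-1, went from 172 and 173 CPM to 0.989 and 1.12 CPM, and it was at 0.252 and 0.447 CPM with IL-7 plus CXCL12. Fosl1 went from 26 and 25 CPM to 0.132 and 0.122 CPM. For Fosb the sign turned once the set was a term, with -7.35 directly (adjusted p = 3.52e-06) and 2.10 set-adjusted (adjusted p = 0.534).

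Not all immediate early genes were lower. Egr2 was at 5.88 and 5.34 CPM with CXCL12, at 8.72 and 8.52 CPM with the inhibitor and at 4.4 and 4.32 CPM with IL-7 plus CXCL12, with a direct adjusted p of 0.179. Atf3, a stress-responsive factor, was at 27.5 and 25.5 CPM with CXCL12 and at 42.7 and 41.2 CPM with the inhibitor, and its direct adjusted p was 0.233. Both were higher in each inhibitor library than in every library of the other 4 culture groups, and neither passed the direct test in the fit of all libraries. The cultures-only fit of the direct comparison called 2 of the 24 immediate early genes higher and 20 lower. The members that passed in the within-set comparison were Klf6, a zinc finger factor, with a log2 difference of 0.51 (adjusted p = 0.00789), and Btg2, which restrains proliferation, with 0.39 (adjusted p = 0.0261).

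**Figure D2:**
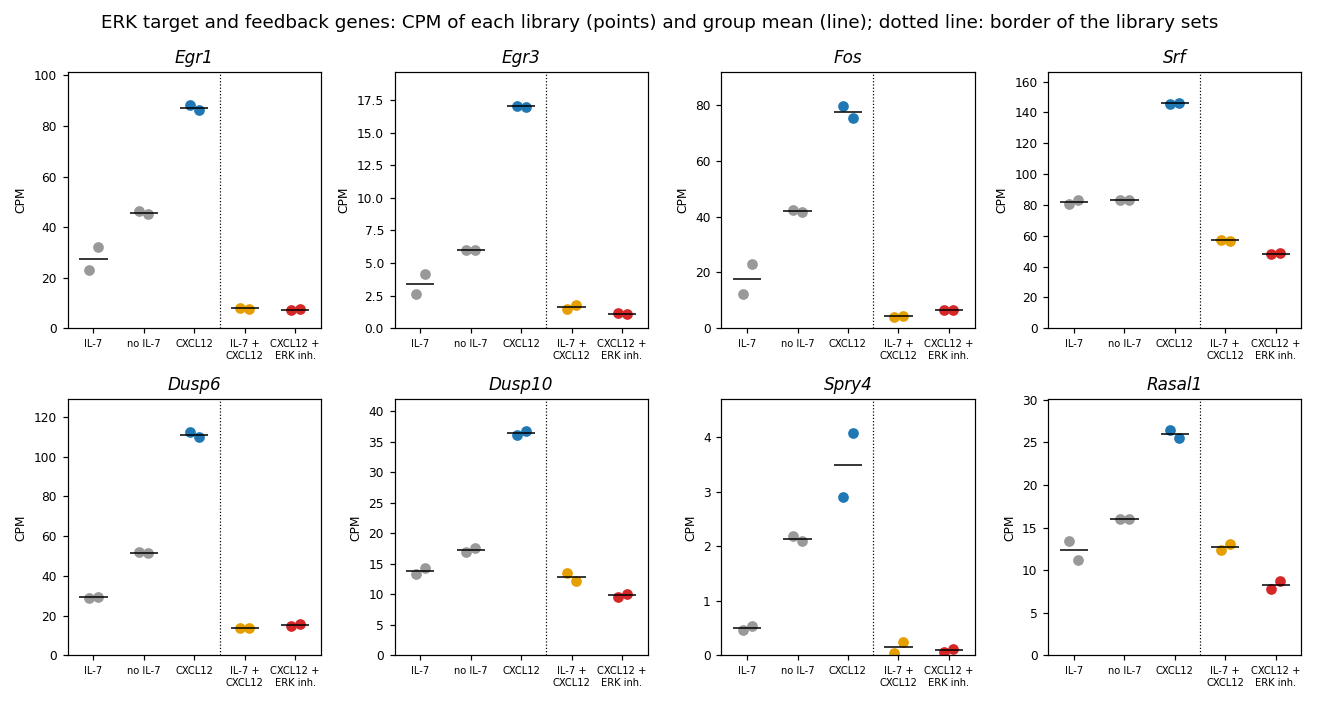
CPM in each library of the 5 CXCR4-sufficient culture groups for 4 immediate early genes (top row) and 4 ERK feedback genes (bottom row). Points are libraries, lines are group means, and the dotted line is the border between library sets. The CXCL12 libraries are the highest in all 8 panels, and the IL-7 plus CXCL12 libraries lie closer to the inhibitor libraries than to the CXCL12 libraries.

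RefSeq promoter windows of GRCm38.p6, which run from 250 bases before to 50 bases after each gene start, were searched for the CArG box on both strands. Windows were held for 18 of the 24 immediate early genes tested and 17 of the 21 feedback genes tested. Egr1 was not among the genes with a window, and the window of Fos held 0 boxes. Boxes farther from the start than the window were not searched for. The box was found in 3 of 18 (16.7%) and 1 of 17 (5.88%), and in 173 (1.62%) of the 10659 tested genes with a window. Of those 173 genes 67 (38.7%) were lower and 42 (24.3%) higher in the direct comparison, beside 30% lower and 26.9% higher over all genes. In the set-adjusted comparison 1 was lower and 2 higher. The 250 bases before the start are shown 5′ to 3′ for the 4 members with a box (for Egr2, before 1 of its annotated starts), with the box in capitals, because 3 of them fell in the direct comparison and Egr2 did not pass.
Srf (GRCm38.p6 chr17:46556163-46556412, minus strand): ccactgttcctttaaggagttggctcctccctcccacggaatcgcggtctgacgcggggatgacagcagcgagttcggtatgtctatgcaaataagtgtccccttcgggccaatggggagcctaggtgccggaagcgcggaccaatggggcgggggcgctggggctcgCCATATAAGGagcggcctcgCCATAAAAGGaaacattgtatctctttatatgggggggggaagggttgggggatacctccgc
Zfp36 (GRCm38.p6 chr7:28379229-28379478, minus strand): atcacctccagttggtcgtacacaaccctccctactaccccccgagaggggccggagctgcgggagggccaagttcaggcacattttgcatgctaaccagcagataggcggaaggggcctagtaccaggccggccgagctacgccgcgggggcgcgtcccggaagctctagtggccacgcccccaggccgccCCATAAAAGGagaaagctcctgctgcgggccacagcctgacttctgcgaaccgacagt
Dusp5 (GRCm38.p6 chr19:53528895-53529144, plus strand): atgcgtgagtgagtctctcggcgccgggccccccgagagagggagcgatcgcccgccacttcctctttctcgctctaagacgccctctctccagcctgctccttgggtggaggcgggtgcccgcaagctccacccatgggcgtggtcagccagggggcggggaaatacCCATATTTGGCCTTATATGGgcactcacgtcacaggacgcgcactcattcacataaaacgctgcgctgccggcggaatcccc
Egr2 (GRCm38.p6 chr10:67537316-67537565, plus strand): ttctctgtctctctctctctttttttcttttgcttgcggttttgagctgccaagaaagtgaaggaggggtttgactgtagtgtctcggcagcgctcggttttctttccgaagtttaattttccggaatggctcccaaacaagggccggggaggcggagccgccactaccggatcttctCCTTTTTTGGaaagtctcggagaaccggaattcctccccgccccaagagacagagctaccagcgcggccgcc
Srf itself was at 145 and 146 CPM with CXCL12 and at 47.9 and 48.7 CPM with the inhibitor, below the 57.4 and 56.9 CPM with IL-7 plus CXCL12. Its direct difference was -1.59 (SE 0.09, adjusted p = 2.49e-08) and its set-adjusted difference -0.26 (SE 0.12, adjusted p = 0.501, and 0.00323 in the cultures-only fit). Zfp36, whose protein destabilises messenger RNAs of immediate early genes, was at 197 and 196 CPM with CXCL12 and at 82.2 and 84.3 CPM with the inhibitor. The set-adjusted value was -0.46 (SE 0.27, adjusted p = 0.703). Dusp5, a nuclear phosphatase of ERK, was at 41.5 and 41.4 CPM against 14 and 14.1 CPM, with a direct adjusted p of 0.00559 and a set-adjusted difference of 0.31 (adjusted p = 1). A box in the window went with falls and with no called change alike.

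ERK feedback genes, which encode antagonists of the pathway and factors that serve as ERK readouts, followed the immediate early genes. Of 21 tested, 17 fell and 0 rose directly, with a median of -1.51. Set-adjusted, 1 fell and 0 rose, with a median of -0.33 against -0.01 for all genes. Within the set 3 fell and 0 rose, and in the cultures-only fit of the set-adjusted comparison 8 fell and 1 rose.

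Rasal1, a GTPase-activating protein that turns Ras off, was the member called in all 3 comparisons. It was at 26.4 and 25.5 CPM with CXCL12, at 7.82 and 8.7 CPM with the inhibitor, and at 12.4 and 13.1 CPM with IL-7 plus CXCL12. The inhibitor libraries were the lowest of the 5 groups. The differences were -1.65 directly (SE 0.15, adjusted p = 2.17e-06), -1.0 set-adjusted (SE 0.21, adjusted p = 0.0387) and -0.62 within the set (adjusted p = 0.0192). With any of the 8 libraries of the set-adjusted comparison left out, its adjusted p lay between 0.0505 and 0.197, so the call was lost each time.

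Dusp6, the cytoplasmic ERK phosphatase, was at 112 and 110 CPM with CXCL12 and at 14.6 and 15.8 CPM with the inhibitor. With IL-7 plus CXCL12 it was at 13.8 and 13.7 CPM. The direct difference was -2.87 (SE 0.17, adjusted p = 5.29e-08) and the set-adjusted difference -0.67 (SE 0.23, adjusted p = 0.252, and 1.22e-05 in the cultures-only fit). Dusp10, a phosphatase of the stress kinases, was at 36.1 and 36.8 CPM against 9.6 and 10.1 CPM, and at 13.5 and 12.2 CPM with IL-7 plus CXCL12. Set-adjusted, Dusp10 differed by -0.71 (SE 0.21, adjusted p = 0.164, and 0.000227 in the cultures-only fit). Spry4, a Sprouty antagonist, went from 2.91 and 4.07 CPM to 0.0659 and 0.122 CPM, while IL-7 plus CXCL12 gave 0.0459 and 0.255 CPM. Errfi1, an inhibitor of epidermal growth factor receptors that stromal cells also express, went from 70.3 and 70.9 CPM to 4.31 and 4.35 CPM. The part of the stromal markers in these differences was not tested.

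Components of the route from CXCR4 to ERK moved less as a group. Of 33 genes tested, 3 rose and 12 fell directly, with a median of -0.05, beside 26.9% higher and 30% lower over all genes. Set-adjusted 0 passed (4 higher and 5 lower in the cultures-only fit), and within the set Gab1, a docking protein, rose and Rasgrp1 fell. Mapk3, which encodes an ERK kinase, was at 87.8 and 83.5 CPM with CXCL12 and at 75.6 and 80.8 CPM with the inhibitor (adjusted p = 0.419). Cxcr4 was at 237 and 226 CPM and at 309 and 322 CPM, a log2 difference of 0.45 with an SE of 0.65 in the fit of all 18 libraries (adjusted p = 0.575). That SE takes in the spread of the libraries labelled CXCR4-/-. In the cultures-only fit the set-adjusted difference of Cxcr4 passed (-0.40 in the fit of all libraries, adjusted p = 0.000204 in the cultures-only fit). Rasgrp1, an activator of Ras in lymphocytes, fell in the direct comparison from 66.1 and 63.7 CPM to 36.7 and 36.1 CPM (-0.84, adjusted p = 3.42e-06) and within the set from 63.8 and 63.4 CPM (-0.81, adjusted p = 9.4e-05). Its set-adjusted difference was -0.34 (adjusted p = 0.242). Rasgrp3 went from 34.2 and 32.5 CPM to 8.57 and 10.3 CPM, with 10.7 and 10.9 CPM in IL-7 plus CXCL12. Pebp1, an inhibitor of RAF kinases, rose from 31.4 and 30.9 CPM with CXCL12 to 118 and 115 CPM with the inhibitor, and Araf, a RAF kinase, fell from 117 and 117 CPM with CXCL12 to 72.3 and 75.5 CPM with the inhibitor. With IL-7 plus CXCL12 these were at 138 and 135 CPM and at 83.7 and 77.7 CPM, on the inhibitor libraries' side of the CXCL12 libraries.

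Transcription factors of the B lineage were mostly lower with the inhibitor directly. Of 31 tested, 19 fell and 5 rose, with a median of -0.81. Set-adjusted, 1 fell and 0 rose, with a median of -0.15, and the cultures-only fit called 15 lower and 3 higher. Within the set 2 fell and 2 rose.

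Irf4, a factor that pre-B cells need for light chain rearrangement, was the member called set-adjusted. It was at 753 and 722 CPM with CXCL12, at 218 and 218 CPM with the inhibitor, at 198 and 200 CPM with IL-7 plus CXCL12, and at 386 and 376 CPM without IL-7. The inhibitor libraries lay below the cultures without IL-7, and just above those with both factors. The differences were -1.76 directly (SE 0.10, adjusted p = 2.66e-08) and -0.60 set-adjusted (SE 0.13, adjusted p = 0.0481). The set-adjusted call was lost whenever 1 of its 8 libraries was left out, with adjusted p from 0.11 to 0.229. Within the set the difference was 0.13 (adjusted p = 0.501). Over the 27 regulators of pre-B cells, their cycle and their signals listed by name, 6 rose and 15 fell directly with a median of -1.03, 0 rose and 1, Irf4, fell set-adjusted with a median of -0.27, 3 were higher and 15 lower in the cultures-only fit, and 3 rose and 5 fell within the set with a median of -0.02.

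Ikzf1, Ikzf3 and Bach2 were likewise highest with CXCL12. Ikzf1, which encodes the lymphoid factor Ikaros, was at 894 and 891 CPM with CXCL12 and at 460 and 458 CPM with the inhibitor, against 534 and 549 CPM with IL-7 plus CXCL12 and 842 and 836 CPM without IL-7. Its set-adjusted difference was -0.78 (SE 0.21, adjusted p = 0.103, and 2.57e-08 in the cultures-only fit). Ikzf3, which encodes Aiolos, was at 843 and 837 CPM and at 234 and 249 CPM, with a direct difference of -1.80 (adjusted p = 0.000197) and a set-adjusted one of -0.51 (adjusted p = 0.911). Bach2, a repressor of plasma cell fate, was at 1462 and 1433 CPM and at 400 and 417 CPM (direct -1.83, adjusted p = 9.63e-07, and set-adjusted -0.78, adjusted p = 0.114).

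Pax5, the identity factor of B cells, was at 380 and 373 CPM with CXCL12 and at 160 and 179 CPM with the inhibitor (-1.15, adjusted p = 0.00114). Foxo1, which drives Rag transcription, was at 501 and 497 CPM and at 246 and 243 CPM (-1.03, adjusted p = 1.25e-06). Spib, an ETS-family partner of IRF4, went from 1839 and 1777 CPM to 423 and 444 CPM (-2.06, adjusted p = 2.76e-09). Their set-adjusted differences were -0.54, -0.15 and -0.34, with adjusted p of 0.735, 0.952 and 0.248. Brwd1, a chromatin reader needed for late B lymphopoiesis, went from 56.1 and 56.6 CPM to 11.4 and 11.1 CPM (-2.32, adjusted p = 6.66e-09, and set-adjusted -0.21, adjusted p = 0.841). Bcl6, a repressor, went from 37.9 and 40 CPM to 10.5 and 10.1 CPM, and Irf8, a relative of Irf4, from 598 and 589 CPM to 284 and 285 CPM. Ebf1, which specifies the B lineage, and Id3, an antagonist of E proteins, did not pass in any of the 3 comparisons, at 412 and 408 against 317 and 314 CPM and at 75.3 and 75.7 against 86.4 and 81.5 CPM. Myb, a factor of lymphoid progenitors, fell from 1497 and 1494 CPM with CXCL12 to 731 and 720 CPM with the inhibitor (-1.04, adjusted p = 1.93e-07), and it rose within the set from 568 and 583 CPM (0.33, adjusted p = 0.0111).

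Of 16 recombination genes tested, 5 rose and 5 fell directly, near the 26.9% higher and 30% lower over all genes. Leaving out the 1 gene with near-identical copies, 4 of 15 rose and 5 fell. Set-adjusted 2 fell and 0 rose, and in the cultures-only fit 3 were lower and 1 higher. Rag1, the catalytic subunit of the recombinase, was at 434 and 429 CPM with CXCL12 and at 189 and 184 CPM with the inhibitor (-1.21, SE 0.25, adjusted p = 0.00128). It was at 82 and 81.4 CPM with IL-7 plus CXCL12 and rose against that group (1.19, adjusted p = 0.00873), and the set-adjusted difference was 0.14 (adjusted p = 1). Rag2, its partner, was at 53.5 and 51.5 CPM with CXCL12 and at 58.7 and 55.9 CPM with the inhibitor, a difference of 0.13 (SE 0.08, adjusted p = 0.182). Rag2 also rose against IL-7 plus CXCL12 (1.14, adjusted p = 9.14e-06), where it was at 26.7 and 25.2 CPM. Thus Rag1 was called lower directly and Rag2 was not, a difference that was not itself tested, and both rose within the set.

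Polm, a DNA polymerase that fills ends during light chain joining, was called lower directly and set-adjusted. It was at 193 and 188 CPM with CXCL12, at 9.76 and 10.5 CPM with the inhibitor, at 61.3 and 60.9 CPM in the IL-7-free cultures and at 20.5 and 18.2 CPM with IL-7. With IL-7 plus CXCL12 it was at 9.93 and 10.1 CPM, the level of the inhibitor libraries. The differences were -4.23 (SE 0.14, adjusted p = 6.66e-10) and -1.64 (SE 0.18, adjusted p = 0.000849), and the set-adjusted call held with each of the 8 libraries left out. Lig4, the ligase of end joining, was at 172 and 172 CPM and at 93.8 and 85.7 CPM, with -0.93 directly (adjusted p = 1.24e-06) and -0.55 set-adjusted (adjusted p = 0.0362, lost with each library left out). Dntt, the terminal transferase, was at 208 and 204 CPM and at 506 and 520 CPM (1.32, adjusted p = 8.27e-05, and set-adjusted 0.57, adjusted p = 0.515). The joining segment IgkJ1 of the kappa locus was at 22.2 and 21.1 CPM with CXCL12, at 4.37 and 4.15 CPM with the inhibitor and at 5.87 and 5.74 CPM with IL-7 plus CXCL12. Its differences were -2.35 directly (adjusted p = 4.9e-08) and -1.16 set-adjusted (adjusted p = 0.00939), and the latter call was kept in 3 of the 8 fits that left out a library.

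**Figure D3:**
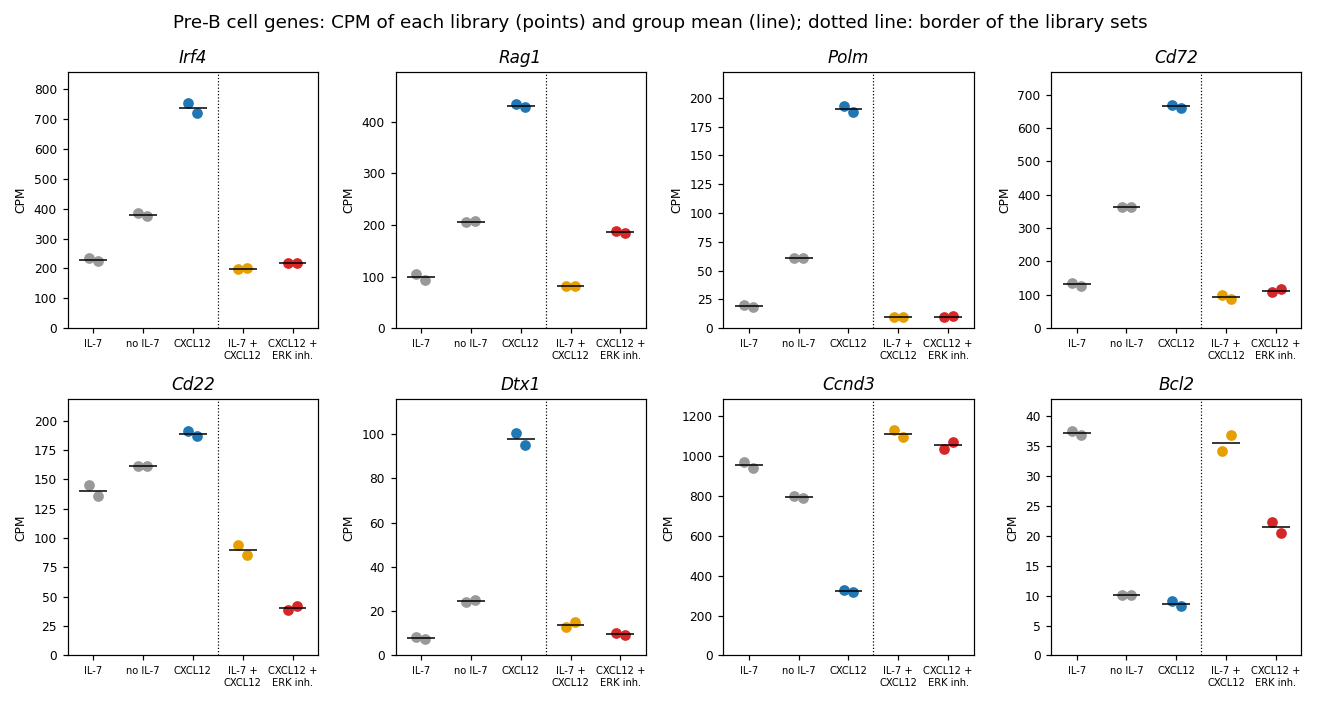
CPM in each library of the 5 CXCR4-sufficient culture groups for 8 genes of pre-B cells. Points are libraries, lines are group means, and the dotted line is the border between library sets. The CXCL12 libraries are the highest for Irf4, Rag1, Polm, Cd72, Cd22 and Dtx1 and the lowest for Ccnd3 and Bcl2, and Rag1 with the inhibitor, 189 and 184 CPM, lies above IL-7 plus CXCL12.

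Genes of pre-B cell receptor signalling were lower more often than higher directly, 10 against 3 of 20 tested, with a median of -0.60. Set-adjusted, 2 fell and 0 rose, and in the cultures-only fit 13 fell and 2 rose. The 2 set-adjusted falls were Cd22 and Cd72, which encode inhibitory coreceptors of the B cell receptor. Cd22 was at 191 and 187 CPM with CXCL12, at 38.6 and 42.4 CPM with the inhibitor, at 93.7 and 85.9 CPM with IL-7 plus CXCL12, and at 162 and 161 CPM without IL-7. The inhibitor libraries were the lowest of the 5 culture groups, and Cd22 fell in all 3 comparisons (-2.22, adjusted p = 3.06e-06, -1.35, adjusted p = 0.0427, and -1.15, adjusted p = 0.00385). Cd72 was at 669 and 660 CPM, at 107 and 117 CPM with the inhibitor and at 98.6 and 87.9 CPM with IL-7 plus CXCL12. Its differences were -2.57 directly (adjusted p = 1.75e-07) and -1.19 set-adjusted (adjusted p = 0.0278). Both set-adjusted calls were lost with each library left out. Among the surrogate light chain genes, Vpreb2 rose from 8.96 and 8.8 CPM with CXCL12 to 174 and 179 CPM with the inhibitor and was at 204 and 186 CPM with IL-7 plus CXCL12. Vpreb2 was called neither set-adjusted nor within the set. Whether reads of similar genes were counted differently on the 2 sides was not tested for it. Vpreb1 was at 338 and 333 CPM and at 544 and 549 CPM (0.71, adjusted p = 0.12), and Igll1 rose from 345 and 335 CPM to 660 and 673 CPM (0.97, adjusted p = 0.00736, and set-adjusted 0.07, adjusted p = 1). Blk, a kinase of the receptor, fell from 767 and 758 CPM with CXCL12 to 378 and 384 CPM with the inhibitor and was at 336 and 304 CPM with IL-7 plus CXCL12.

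Genes of late B maturation fell in 17 and rose in 8 of 30 cases directly, with a median of -0.94, and set-adjusted 2 fell and 1 rose (13 lower and 7 higher in the cultures-only fit). The falls were Cd22 and Cd83, a surface protein of activated B cells. Cd83 was at 27.5 and 26.9 CPM with CXCL12, at 9.03 and 9.15 CPM with the inhibitor and at 14.2 and 14.2 CPM with IL-7 plus CXCL12. It fell in all 3 comparisons (-1.58, -1.29 and -0.64, with adjusted p of 6.47e-07, 0.00379 and 0.00613), and the set-adjusted call held with each library left out and was lost with close pairs summed (adjusted p = 0.0787). The rise was H2-Aa, a chain of MHC class II, at 162 and 161 CPM with CXCL12, 279 and 294 CPM with the inhibitor and 110 and 100 CPM with IL-7 plus CXCL12. Its set-adjusted difference was 0.80 (adjusted p = 0.0397), and the call was lost with each library left out (0.114 to 0.222). H2-Aa is also expressed by myeloid cells, whose markers were highest in the same libraries among the cultures, and their part in this rise was not tested. The 5 rises of the list within the set were genes of MHC class II and its loading, H2-Aa among them. Ms4a1, which encodes CD20, was at 96.7 and 92.3 CPM with CXCL12, at 30.7 and 28.7 CPM with the inhibitor and at 99.2 and 98.4 CPM with IL-7 plus CXCL12. It fell directly (-1.67, adjusted p = 0.000742) and within the set (-1.73, adjusted p = 0.00408), and set-adjusted it was at -1.23 (SE 0.44, adjusted p = 0.289, and 7.36e-09 in the cultures-only fit).

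Other late B genes fell directly and missed the set-adjusted test. Tnfrsf13c, the receptor for the survival factor BAFF, went from 206 and 207 CPM with CXCL12 to 57.1 and 55 CPM with the inhibitor (-1.88, adjusted p = 8.65e-08, and set-adjusted -0.66, adjusted p = 0.0779). Cd37, a tetraspanin of B cells, went from 538 and 536 CPM with CXCL12 to 216 and 230 CPM with the inhibitor and fell within the set as well (-0.37, adjusted p = 0.0225). H2-Ob, a modulator of class II loading in B cells, went from 456 and 446 CPM with CXCL12 to 113 and 116 CPM with the inhibitor, and it was at 107 and 101 CPM with IL-7 plus CXCL12. Fcrla, an Fc receptor-like protein of B cells, went from 387 and 389 CPM with CXCL12 to 67.4 and 72.5 CPM with the inhibitor, with 66.7 and 60.2 CPM in IL-7 plus CXCL12. In the cultures-only fit of the set-adjusted comparison these 4 passed, with adjusted p of 5.16e-07, 1.1e-05, 7.43e-05 and 3.4e-06.

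NF-kB subunits and targets had the lowest median of the biology lists in the direct comparison, -1.74, with 14 of 20 lower and 5 higher. Set-adjusted, 2 fell and 0 rose, with a median of -0.25, and the cultures-only fit called 9 lower and 1 higher. The 2 were Nfkbie and Nfkbiz, which encode proteins of the IkB family. Nfkbiz was at 51.8 and 52.2 CPM with CXCL12, at 14.3 and 14.8 CPM with the inhibitor, at 18.1 and 19 CPM with IL-7 plus CXCL12 and at 30.4 and 29.4 CPM without IL-7. It fell in all 3 comparisons (-1.84, -0.90 and -0.35, with adjusted p of 2.6e-08, 0.0058 and 0.0388), and set-adjusted in each of the 8 fits that left out a library, though not with close pairs summed (adjusted p = 0.0942). Nfkbie was at 233 and 220 CPM against 45.6 and 46.1 CPM, and its set-adjusted difference was -0.59 (adjusted p = 0.0362, lost with each library left out). Nfkb2, a subunit of the alternative pathway, went from 168 and 165 CPM to 40 and 39.5 CPM and was at 31.1 and 33.3 CPM with IL-7 plus CXCL12. Birc3, an NF-kB target that restrains cell death, went from 255 and 250 CPM with CXCL12 to 67.8 and 68.7 CPM with the inhibitor and was at 61.8 and 56 CPM with IL-7 plus CXCL12.

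Cell cycle genes were higher with the inhibitor without exception in the direct comparison. All 44 S phase genes tested rose, with a median of 1.67, and all 48 G2 and M phase genes tested rose, with a median of 1.46. Leaving out genes with near-identical copies, 41 of 41 and 45 of 45 rose. Set-adjusted 0 of either list passed, with medians of -0.04 and -0.23. In the cultures-only fit 6 S phase genes and 39 G2 and M phase genes were lower and 0 higher. Within the set 12 S phase genes and 1 G2 and M phase gene fell and 0 rose. In the cultures-only fit of the within-set comparison 42 and 34 fell and 0 rose. For G2 and M phase genes the direct comparison and the cultures-only fit of the set-adjusted one had opposite directions.

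Mcm6, a subunit of the replicative helicase, was at 133 and 132 CPM with CXCL12, at 535 and 540 CPM with the inhibitor, at 671 and 642 CPM with IL-7 plus CXCL12 and at 450 and 448 CPM without IL-7. Mki67, which marks dividing cells, was at 779 and 774 CPM, at 1739 and 1848 CPM with the inhibitor, at 1761 and 2019 CPM with IL-7 plus CXCL12 and at 2019 and 1995 CPM without IL-7. The CXCL12 libraries were the lowest for both genes, and the inhibitor libraries lay within the range of the other 3 groups. For Mki67 the direct difference was 1.21 (SE 0.14, adjusted p = 1.47e-05) and the set-adjusted difference -0.28 (SE 0.20, adjusted p = 0.841). Cdca7, a Myc-responsive gene, went from 31.5 and 30.6 CPM with CXCL12 to 228 and 227 CPM with the inhibitor and fell within the set from 343 and 333 CPM (-0.57, adjusted p = 0.000493). Ccnb1, the mitotic cyclin and a gene with near-identical copies, went from 24.1 and 25.3 CPM with CXCL12 to 254 and 247 CPM with the inhibitor. It stood at 292 and 282 CPM with IL-7 plus CXCL12 and at 73.9 and 74 CPM without IL-7. Ccna2, the cyclin of S and G2 phase, went from 169 and 173 CPM with CXCL12 to 597 and 553 CPM with the inhibitor, and the cultures without IL-7 held 531 and 532 CPM.

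Among 18 D cyclins, their kinases and inhibitors, 9 rose and 3 fell directly, and set-adjusted 0 passed (4 higher and 4 lower in the cultures-only fit). Ccnd3, the D cyclin that pre-B cell division depends on and a gene with near-identical copies, was at 326 and 321 CPM with CXCL12, at 1038 and 1073 CPM with the inhibitor and at 1129 and 1095 CPM with IL-7 plus CXCL12 (1.71, adjusted p = 2.97e-07, and set-adjusted 0.19, adjusted p = 0.987). Ccnd2 rose from 112 and 103 CPM to 211 and 216 CPM. Ccnd1 fell from 113 and 106 CPM to 4.97 and 4.86 CPM (-4.47, adjusted p = 1.33e-06). It was at 2.18 and 2.08 CPM with IL-7 plus CXCL12, and its set-adjusted difference was 0.45 (adjusted p = 1). The CXCL12 libraries also held the highest stromal sums, and the part of stromal RNA in this fall was not tested.

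Myc and 37 genes of ribosome assembly and growth were mostly lower with the inhibitor than with IL-7 plus CXCL12. Those groups differ in IL-7 as well as in the inhibitor. Directly 28 of the 38 rose and 1 fell, with a median of 0.60, and within the set 34 fell and 0 rose, with a median of -0.71. Leaving out genes with near-identical copies, 25 of 35 rose and 1 fell directly. Set-adjusted 0 passed, with a median of 0.07, and in the cultures-only fit 6 were higher and 2 lower. Myc was at 27.7 and 25.2 CPM with CXCL12, at 73.4 and 72.4 CPM with the inhibitor, at 187 and 186 CPM with IL-7 plus CXCL12 and at 84.1 and 84.5 CPM without IL-7. It rose directly (1.46, SE 0.08, adjusted p = 2.38e-08), fell within the set (-1.35, adjusted p = 3.38e-06) and was at -0.42 set-adjusted (SE 0.11, adjusted p = 0.0936, and 7.78e-05 in the cultures-only fit). Odc1, a Myc target of polyamine synthesis, was at 64.2 and 62.8 CPM with CXCL12, 218 and 212 CPM with the inhibitor and 353 and 336 CPM with IL-7 plus CXCL12. Nop56, a ribosome assembly factor, was at 73.6 and 75.3, 228 and 235 and 381 and 360 CPM. Both stood between the 2 other groups, rose directly and fell within the set (adjusted p = 0.000452 and 0.000383).

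Targets of IL-7 and STAT5 changed in both directions. Of 17 tested, 7 rose and 5 fell directly, and within the set 1 rose and 6 fell. Set-adjusted, 1 rose, which was Bcl2, and 0 fell (3 higher and 2 lower in the cultures-only fit). Cish, an inhibitor of cytokine signalling induced by STAT5, was at 4.79 and 4.29 CPM with CXCL12, at 43.8 and 47.3 CPM with the inhibitor, at 108 and 104 CPM with IL-7 plus CXCL12 and at 30 and 28.9 CPM without IL-7. It rose directly (3.32, adjusted p = 6.66e-10) and fell within the set (-1.22, adjusted p = 1.64e-05). Socs2, another STAT5-induced inhibitor, was at 31.3 and 36.5, 217 and 192 and 342 and 387 CPM with CXCL12, with the inhibitor and with IL-7 plus CXCL12. Il7r, the receptor chain, was at 303 and 302 CPM and at 275 and 259 CPM (-0.18, adjusted p = 0.191), and it rose within the set from 127 and 137 CPM (1.02, adjusted p = 0.000161). Il2ra, which encodes CD25, fell from 95 and 93.2 CPM to 17.2 and 19 CPM (-2.38, adjusted p = 4.35e-09, and set-adjusted -0.17, adjusted p = 0.925). Of 24 FOXO targets 14 fell and 2 rose directly, within the set 9 rose and 1 fell, and the cultures-only fit called 2 higher and 9 lower. The 9 included Rag1, Rag2, Il7r and Pik3ip1, an inhibitor of PI3 kinase, which was at 102 and 99.6 CPM with CXCL12, 40.1 and 37.6 CPM with the inhibitor and 26.9 and 27.4 CPM with IL-7 plus CXCL12. Set-adjusted 1 rose, which was Bcl2l11, and 1 fell, which was Trib2, a pseudokinase, from 138 and 136 CPM with CXCL12 to 17.5 and 16.7 CPM with the inhibitor, with 17 and 18.2 CPM in IL-7 plus CXCL12 and 61.3 and 60.4 CPM without IL-7 (set-adjusted -0.99, adjusted p = 0.00184).

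**Figure D4:**
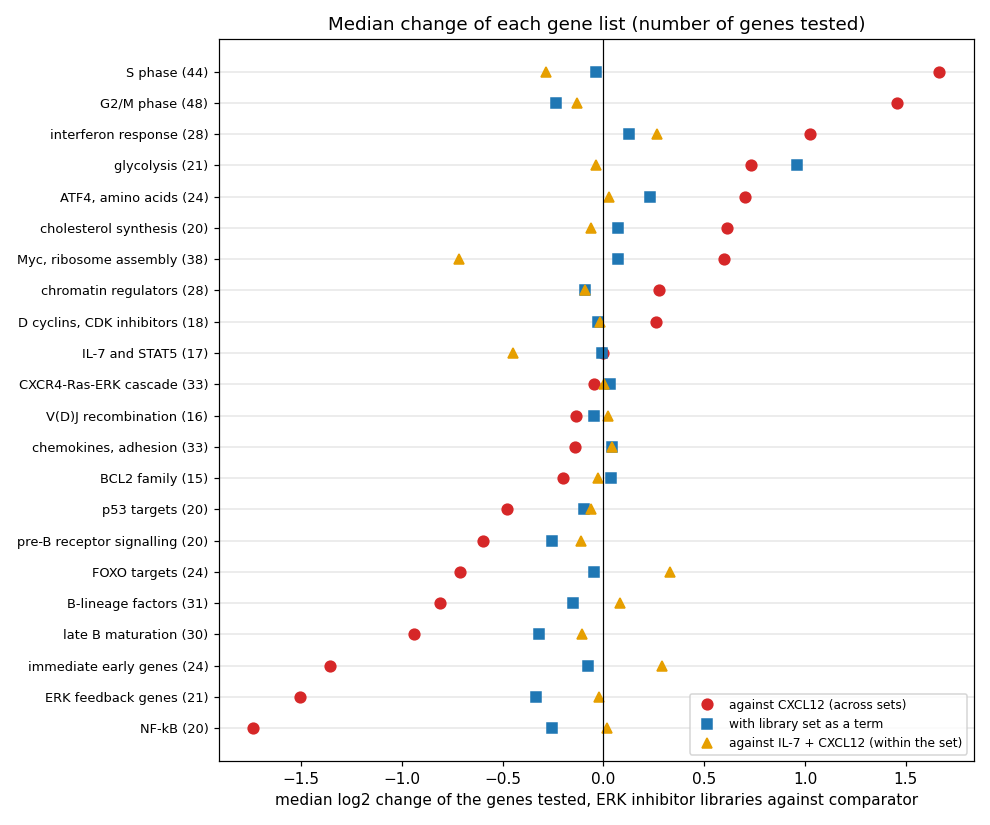
Median log2 difference of each biology list (rows, with the number of genes tested) in the direct, set-adjusted and within-set comparisons, which share the inhibitor libraries. The direct medians run from -1.74 for NF-kB to 1.67 for S phase, while the set-adjusted ones lie between -0.33 and 0.23 except for glycolysis at 0.96.

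Glycolysis had the highest set-adjusted median of the biology lists, with 7 of 21 genes higher and 0 lower and a median of 0.96. Directly 13 rose and 2 fell, with a median of 0.73. Leaving out the 5 glycolytic genes with near-identical copies, 8 of 16 rose directly and 5 set-adjusted, with medians of 0.50 and 0.73. In the cultures-only fit 14 of 21 were higher and 0 lower. Within the set 1 rose, which was Aldoc, and 0 fell, with a median of -0.04. In the cultures-only fit of the within-set comparison 3 rose and 8 fell.

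Aldoc, an aldolase, was at 2.71 and 2.48 CPM with CXCL12, at 11.2 and 11.7 CPM with the inhibitor, at 4.77 and 5.06 CPM with IL-7 plus CXCL12 and at 4.38 and 4.78 CPM without IL-7. It rose in all 3 comparisons (2.13, 3.23 and 1.22, with adjusted p of 8.01e-06, 0.00042 and 0.00334). Pfkp, a phosphofructokinase, was at 60.6 and 65.8 CPM with CXCL12 and at 102 and 110 CPM with the inhibitor, against 106 and 102 CPM with IL-7 plus CXCL12. In the other set it was at 68.4 and 65.7 CPM when IL-7 was absent and 121 and 119 CPM when it was present, so removing IL-7 went with less Pfkp there and not in the inhibitor libraries. Its set-adjusted difference was 0.87 (SE 0.12, adjusted p = 0.00304), and for both genes that call held with each of the 8 libraries left out. With close pairs summed Aldoc kept it (adjusted p = 0.0218) and Pfkp lost it (adjusted p = 0.0674). Ldha, lactate dehydrogenase A, was at 366 and 368 CPM with CXCL12, at 1053 and 1090 CPM with the inhibitor, at 1430 and 1305 CPM with IL-7 plus CXCL12 and at 463 and 456 CPM without IL-7. Its differences were 1.55 directly (adjusted p = 2.24e-06) and 1.00 set-adjusted (adjusted p = 0.028, lost with each library left out). Tpi1, triosephosphate isomerase, and Aldoa, an aldolase, were called set-adjusted too (1.22 and 1.21, adjusted p = 0.00963 and 0.00987), each kept in 4 of 8 fits without a library. Tpi1 was at 156 and 150 CPM with CXCL12, 346 and 368 CPM with the inhibitor, 181 and 183 CPM when IL-7 was absent and 479 and 476 CPM when it was present.

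In the BCL2 family, 4 of 15 rose and 5 fell directly, near the 26.9% higher and 30% lower over all genes. Set-adjusted 2 rose and 0 fell, and in the cultures-only fit 4 were higher and 2 lower. Bcl2, which prevents cell death, was at 9.05 and 8.25 CPM with CXCL12, at 22.3 and 20.5 CPM with the inhibitor, at 34.2 and 36.8 CPM with IL-7 plus CXCL12 and at 10.1 and 10.1 CPM without IL-7. It rose directly (1.30, adjusted p = 5.33e-06) and set-adjusted (1.15, adjusted p = 0.00783, kept in 4 of 8 fits without a library) and fell within the set (-0.73, adjusted p = 0.00341). Bcl2l11, which encodes the death-promoting BIM, a protein that ERK is known to mark for degradation, was at 48.1 and 46.9 CPM with CXCL12 and at 81.5 and 78.6 CPM with the inhibitor. Its differences were 0.75 directly (adjusted p = 4.07e-05) and 0.63 set-adjusted (adjusted p = 0.0481, lost with each library left out), and within the set it fell from 102 and 104 CPM (-0.36, adjusted p = 0.034). Bmf, another death-promoting member, went from 320 and 314 CPM to 42.8 and 44.3 CPM, with 33 and 31.6 CPM in IL-7 plus CXCL12.

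The remaining biology lists held at most 1 set-adjusted call in either direction, and more in the cultures-only fit. Of 28 interferon-response genes 17 rose and 2 fell directly, and set-adjusted 1 rose, which was Gbp2, a guanylate-binding protein with near-identical copies, from 22.9 and 22.7 CPM with CXCL12 to 194 and 198 CPM with the inhibitor, beside 160 and 153 CPM with IL-7 plus CXCL12. Its set-adjusted difference was 1.03 (adjusted p = 0.00381, and 0.0818 with close pairs summed). The cultures-only fit called 7 interferon-response genes higher and 1 lower. Cholesterol synthesis had 12 of 20 higher and 0 lower directly and 0 called set-adjusted (3 higher and 2 lower in the cultures-only fit). Of 24 ATF4 and amino acid genes 13 rose and 5 fell directly, set-adjusted 1 rose and 1 fell, and in the cultures-only fit 10 were higher and 1 lower, against 9.32% and 10% of all genes. The rise was Slc3a2, the heavy chain of amino acid transporters (0.58, adjusted p = 0.0404), from 88.5 and 88.2 CPM with CXCL12 to 169 and 170 CPM with the inhibitor. The fall was Herpud1, a gene of the unfolded protein response, from 562 and 550 CPM to 220 and 224 CPM (set-adjusted -0.57, adjusted p = 0.0296). Both calls were lost with each library left out. Of 20 p53 targets 3 rose and 9 fell directly, of 28 chromatin regulators 12 rose and 6 fell, and 0 of either passed set-adjusted (1 higher and 4 lower, and 2 higher and 7 lower, in the cultures-only fit). Among 33 chemokine, adhesion and migration genes 9 rose and 12 fell directly, near the 26.9% higher and 30% lower over all genes. Set-adjusted 0 rose and 1 fell, and within the set 8 rose and 1 fell. In the cultures-only fit 9 of 32 were higher and 7 lower. The gene that fell set-adjusted and within the set was Rgs18, a regulator of G protein signalling (-1.04 and -0.47, adjusted p = 0.0156 and 0.0428). The set-adjusted call was kept in 1 of the 8 fits that left out a library. Rgs18 was at 8.36 and 8.03 CPM with CXCL12, 8.07 and 6.81 CPM with the inhibitor and 10 and 10.5 CPM with IL-7 plus CXCL12, and did not pass directly (-0.14, adjusted p = 0.393). S1pr1, the receptor that guides exit into the blood, was among the direct falls, from 207 and 207 CPM to 46.5 and 46.7 CPM, at the level of the 46.6 and 44.4 CPM in IL-7 plus CXCL12.

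The largest direct falls, copy-prone genes set aside, were mostly of genes that stromal cells express. Of the 8 largest falls 7 were Fat1, Col6a3, Col6a2, Col2a1, Hspg2, Nid1 and Thbs2, which encode matrix and adhesion proteins of stromal cells, and the other was Fosb. Col6a3, a collagen chain, was at 290 and 286 CPM with CXCL12, at 1.38 and 1.57 CPM with the inhibitor and at 0.826 and 0.808 CPM with IL-7 plus CXCL12. None of the 8 was called set-adjusted. Of 15 stromal markers 12 fell and 1 rose directly, with a median of -5.66, and within the set 10 rose and 0 fell.

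Of the 8 largest rises, Gldc, Clgn and Itgax were also called set-adjusted. Gldc, which encodes the glycine decarboxylase, was at 2.15 and 3.08 CPM with CXCL12, at 299 and 309 CPM with the inhibitor, at 537 and 530 CPM with IL-7 plus CXCL12 and at 135 and 133 CPM without IL-7. The CXCL12 libraries stood far below every other culture group. Its differences were 6.91 directly (adjusted p = 7.4e-08) and 1.99 set-adjusted (adjusted p = 0.0372, lost with each library left out). Clgn, a chaperone of the endoplasmic reticulum, was at 2.08 and 1.98 CPM and at 115 and 111 CPM, with 0.83 set-adjusted (adjusted p = 0.00814, kept in 5 of 8 fits without a library). The others were H2afz, Hmgb2, Crhbp, Igj and Igha. H2afz, a histone variant, was at 12.3 and 12.7 CPM with CXCL12 and 587 and 556 CPM with the inhibitor, and at 612 and 671 CPM with IL-7 plus CXCL12. The cultures without IL-7 held 26.5 and 27 CPM of H2afz and those with IL-7 27 and 24.6 CPM, so the libraries of the inhibitor's set were above all those of the other culture groups. The set-adjusted difference of H2afz was -0.22. H2afz is not copy-prone by the rule used, which goes by gene names, and the part of read counting in its rise was not tested.

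The genes that fell both directly and set-adjusted were led by Dtx1, Srpk3, Lrrc32, Tmem108, Spns3, Hdac9, Polm and Egfl6, ranked by the smaller of their 2 changes. Dtx1, a Notch target that encodes the ligase Deltex, was at 101 and 95.1 CPM with CXCL12, at 10.3 and 9.07 CPM with the inhibitor, at 12.7 and 15.2 CPM with IL-7 plus CXCL12 and at 24.3 and 25 CPM without IL-7 (-3.33, adjusted p = 1.41e-08, and -2.14, adjusted p = 0.000668). Srpk3, a kinase of splicing factors, was at 37.7 and 38.8 CPM, at 4.04 and 4.09 CPM with the inhibitor and at 7.59 and 7.85 CPM with IL-7 plus CXCL12. It fell in all 3 comparisons (-3.23, -1.99 and -0.92, with adjusted p of 3.73e-08, 0.00167 and 0.00518). Tmem108, a membrane protein, was at 118 and 118 CPM, at 20.5 and 19.9 CPM with the inhibitor and at 83.3 and 81.3 CPM without IL-7, with a set-adjusted difference of -1.83 (SE 0.14, adjusted p = 4.48e-05). Spns3, a transporter, fell from 123 and 120 CPM to 9.98 and 12.1 CPM (set-adjusted -1.76, adjusted p = 0.000668), and Egfl6, a secreted factor, from 27.6 and 28.9 CPM to 5.1 and 5.27 CPM (set-adjusted -1.46, adjusted p = 0.00159). These set-adjusted calls held with each of the 8 libraries left out. Those of Hdac9 and Lrrc32 were kept in 0 and 1 of the 8 fits.

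The genes that rose both directly and set-adjusted were led by Itgax, F7, Mertk, Mmp13, Mmp19, Mpzl2, Mgll and Slc7a2. Several are macrophage genes. Itgax, which encodes the integrin CD11c, was at 3.55 and 2.86 CPM with CXCL12, at 85.6 and 90 CPM with the inhibitor and at 8.56 and 8.44 CPM with IL-7 plus CXCL12. Mertk, a receptor for apoptotic cells, was at 4.81 and 4.07 CPM, at 24.9 and 26.8 CPM with the inhibitor and at 2.32 and 2.72 CPM with IL-7 plus CXCL12. Both rose within the set as well (3.37, adjusted p = 9.14e-06, and 3.36, adjusted p = 0.000133). Mmp12, a macrophage elastase named after its values were seen, was at 232 and 233 CPM, 939 and 905 CPM with the inhibitor and 182 and 177 CPM with IL-7 plus CXCL12. Cd274, which encodes PD-L1, was at 25.2 and 23.1 CPM, 82 and 82.5 CPM and 27.1 and 26.7 CPM (set-adjusted 1.55, adjusted p = 0.00282). Beside these, 14 of 20 myeloid markers rose and 0 fell directly, 8 rose and 0 fell within the set, and 0 passed set-adjusted (8 higher and 10 lower in the cultures-only fit), with a median of -0.28 against -0.01 for all genes. Lyz2, a defining myeloid marker, was at 216 and 217 CPM with CXCL12, 1787 and 1826 CPM with the inhibitor and 490 and 449 CPM with IL-7 plus CXCL12. The part of myeloid RNA in these rises was not tested. With each of the 8 libraries left out, Itgax, F7, Mmp13, Mmp12, Slc7a2 and Cd274 kept their set-adjusted calls, and Mertk and Mmp19 were kept in 1 of 8 fits each. With close pairs summed Itgax and Mmp13 kept the call, while F7, Mmp12, Slc7a2 and Cd274 lost it (adjusted p = 0.0827, 0.0787, 0.128 and 0.0683).

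Mgll and Mpzl2 were also present where myeloid markers were lowest. Mgll, a lipase of endocannabinoids, was at 8.65 and 8.97 CPM with CXCL12, at 35.4 and 37.3 CPM with the inhibitor, at 13.2 and 13.9 CPM with IL-7 plus CXCL12 and at 16.4 and 16.8 CPM with IL-7. It rose in all 3 comparisons (2.05, 2.65 and 1.43, with adjusted p of 1.1e-08, 3.18e-06 and 9.14e-06), and had the smallest adjusted p of the named genes set-adjusted. Mpzl2, an adhesion protein, was at 7.65 and 10.1 CPM, at 81.2 and 82.4 CPM with the inhibitor and at 174 and 153 CPM with IL-7. In the CXCR4-/- cells with CXCL12, whose 20 myeloid markers summed to 16.8 and 15.4 CPM, Mgll was at 18.2 and 19.6 CPM and Mpzl2 at 207 and 231 CPM, while Itgax was at 0.0903 and 0 CPM and Mertk at 0 and 0 CPM. These are levels in other cells. The part of myeloid RNA in the rises of Mgll and Mpzl2 with the inhibitor was not tested.

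Other marker lists had calls in the direct comparison and few within the set in the fit of all libraries. T cell markers rose in 12 of 13 cases and fell in 0, natural killer markers in 9 and 1 of 10, and megakaryocyte markers in 6 and 0 of 7. Within the set 1, 0 and 0 of them rose and 0 fell. The cultures-only fit of the within-set comparison called 1, 1 and 1 higher and 4, 4 and 2 lower. Summed natural killer markers were at 4.44 and 3.85 CPM with CXCL12, 31.9 and 31.9 CPM with the inhibitor and 37.9 and 38.5 CPM with IL-7 plus CXCL12. Mature B markers rose in 3 and fell in 9 of 13, those of B-lineage identity in 1 and 9 of 12, of plasma cells in 2 and 2 of 9, of plasmacytoid dendritic cells in 1 and 5 of 10, of B cell progenitors in 6 and 2 of 14, and of erythroid cells in 0 and 0 of 6. Of 9 genes of RNA stress and quality 5 rose and 4 fell. In the cultures-only fit of the within-set comparison mature B markers rose in 1 and fell in 8 of 13. Those of B-lineage identity did so in 3 and 5 of 12, and of B cell progenitors in 7 and 2 of 14. Plasma cell markers did so in 4 and 2 of 8, and those of plasmacytoid dendritic cells in 4 and 4 of 9.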

How the data were processed

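RNA-seq libraries (polyA-selected, strand-specific TruSeq kit, from flow-sorted cells, per the labels' protocols) were analysed from the raw read counts per gene deposited by the authors in 1 table of 23762 symbols and 18 libraries, with 0 columns of no sample. The submitters' processing notes name STAR, BWA, Picard, featureCounts, bedtools and MACS2 and the build mm9. Their versions, roles and the annotation and strand setting of the counting are not given in the sources used here. Totals ran from 17257914 to 50235192 counts, and 21903 symbols (92.2%) matched RefSeq. The 8 ATAC-seq samples were not used here.

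All 18 libraries in 9 groups were fitted with edgeR 4.0.16 in R 4.3.3 (TMM scaling, default expression filter, robust quasi-likelihood test, Benjamini-Hochberg over 14862 genes, called at an adjusted p under 0.05), with 1 mean per group and no replicate block. CPM use the TMM-scaled totals. List counts are descriptions with no set test. Copy-prone genes are ribosomal protein genes and genes whose name a RefSeq pseudogene carries. Other genes with copies under other names are not caught by this rule. Scripts were tested on simulated data. Alternatives were RLE size factors, other filters, DESeq2 1.42.0, other samples in the fit, the replicate block, a 2-fold threshold, scaling without copy-prone genes, and each library left out, and 3 more were added after seeing the data.

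The members and gene lists were chosen with earlier results of these data known. Genes named by rule (131) were 27 regulators, the 8 largest called rises and falls among genes averaging a log2 CPM of 3 or more, the 8 per direction called alike directly and set-adjusted, and up to 4 per list with the smallest direct p, of which some are not reported here. Copy-prone, immunoglobulin segment, sex-linked and stromal or myeloid marker genes were left out of the rankings. So were genes at least 4-fold higher in both IL-7 plus CXCL12 libraries than in each of the 14 libraries outside the set, an exclusion defined after values were seen. A further 33 named genes were chosen after their values were seen: Egr3, Fos, Zfp36, Egr2, Atf3, Klf4, Klf6, Dusp5, Spry4, Mapk3, Cd22, Dntt, Aldoc, Tpi1, Pfkp, Aldoa, Bcl2l11, H2-Aa, Cd83, Ms4a1, Mmp12, Cd274, IgkJ1, IgkJ2, Gapdh, Xist, Ddx3y, Rps29, Lyz2, Fn1, Slc3a2, Rgs18 and Gab1. Promoter sequences are RefSeq's for GRCm38.p6, whose coordinates were not compared with mm9.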

Additional observations from a re-analysis of the deposited data

How the results depend on the processing

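The direct count of 8460 genes stayed within 1.5 times under other size factors, other low-count filters, DESeq2, only its 4 libraries, only the CXCR4-sufficient cultures, scaling without copy-prone genes, and each library left out (6542 to 6974). It moved to 3088 against a change of at least 2-fold and to 237 with the library set as a term. It was 4956 over genes at 10 CPM or more in sorted wild-type cells. These sorted-cell genes number 8560 of the 14862 tested, so each sorted-cell count here and below is over fewer genes. Of them 28.2% were higher and 29.7% lower directly, near the 26.9% and 30% over all genes. The set-adjusted 237 moved to 630 with DESeq2, 2809 with only the cultures, 19 against 2-fold, 35 with close pairs summed, 144 over the sorted-cell genes, and 81 to 173 with 1 of its 8 libraries left out, where each loss but that of IL-7 replicate 1 moved it by over 1.5 times. The within-set 1640 moved to 6808 with only the cultures, 121 against 2-fold, 926 with close pairs summed, 970 over the sorted-cell genes, and 655 to 720 with any of its 4 libraries left out. Where a group was left with 1 library, that library was assumed to vary like the others. Replicate numbers as a block (replicate block) gave 8392, 191 and 1536, and same-numbered deviations of the inhibitor and CXCL12 libraries correlated at -0.093 over 9071 genes, and those of the inhibitor and IL-7 plus CXCL12 libraries at -0.401. Nothing in the labels ties a number to a shared animal or batch, so no pairing was used. Of 164 named genes, 42 kept direction and call with the set as a term, 5 were called in neither, 76 lost the call, 1 gained it and 40 changed sign of the log2 difference, and the cause was not tested: Rag1 0.14, Rag2 -0.019, Myc -0.42, Ccnd1 0.45, Cxcr4 -0.40, Mki67 -0.28, H2afz -0.22, Hmgb2 -0.17, Igha -1.12, Fosb 2.10, Col6a2 0.88, Col2a1 1.31, Hspg2 0.82, Nr4a1 0.069, Hmgb1 -0.096, Uhrf1 -0.15, Ccnb1 -0.16, Cks2 -0.57, Ccna2 -0.26, Nusap1 -0.30, Cdkn2c -0.31, Socs2 -0.093, Odc1 -0.041, Slc16a1 -0.073, Idi1 -0.024, Pik3ip1 0.033, Txnip 0.12, Gtse1 -0.19, Ptk2 0.23, Hdac1 -0.087, Kdm6b 0.13, Egr2 -0.0033, Klf4 1.06, Klf6 0.13, Dusp5 0.31, Mapk3 0.15, Xist -0.14, Ddx3y 0.048, Fn1 0.49, Gab1 0.22. Without copy-prone genes in the scaling, Mapk3 was at 0.018 and Rgs18 at 0.0069, and without all genes counted apart at 0.022 and 0.011. Counts of 2 libraries a group limit all comparisons, and Spry4, at 4.07 CPM or less in the libraries compared, had an SE of 0.56 directly. Close-pair, sorted-cell and counted-apart settings were chosen after seeing the data.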
